A study of Homo sapiens with 4 samples.

Results

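Liver work has established a number of genes as targets of the microRNA miR-122, and 10 of them were followed in human 293T cells that had received a miR-122 mimic. They were ALDOA, SLC7A1, CCNG1, GYS1, P4HA1, ADAM10, NDRG3, BCKDK, CLIC4, and TMED3. The choice was made by name, as known targets of miR-122, by a rule that uses no value of these libraries, although earlier results of these data were known when it was made. All 10 were found among the 58243 Ensembl genes of the deposited tables. All 10 also had at least 200 reads over the 4 libraries, a filter that 12814 genes passed while being above 0.004 FPKM (fragments per kilobase of length, per 1000000 reads) in each library. These 12814 genes are called the tested genes, although 1 library per condition allows no test between conditions and none was made.

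The study transfected 293T, an established human embryonic kidney cell line, with a mimic of miR-122, of miR-1, or of miR-124, a short RNA that acts as the mature microRNA, or with a control RNA in its place. Total RNA was then isolated and made into mRNA libraries, 1 per condition, which were sequenced. The labels put the harvest at 48 h in all 4 groups, whereas the study's Methods give an earlier time. Libraries were scaled to between 5887055 reads (miR-122) and 9452232 reads (miR-1), with 6624306 for control RNA and 6465436 for miR-124. The cells were lysed in bulk, so that a lower level in every cell and a larger decrease in only those cells that took up the mimic cannot be told apart.

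miR-122 is the most abundant microRNA of hepatocytes and is scarce in most other cell types. A microRNA is carried by an Argonaute protein and pairs through its seed, bases 2 to 8 from the 5′ end, with matching sites that lie mostly in the 3′ untranslated region (UTR) of mRNAs. Pairing lowers translation and speeds up mRNA decay, and RNA-seq sees the decay but not the translation. Known targets of miR-122 serve amino acid transport, glycolysis and glycogen synthesis, collagen modification, and growth control. The 293T libraries carried no sign of liver identity. The host transcript MIR122HG was listed at 0 in all 4 libraries, where a count of 0 allows up to 3 reads. MIR122 was at 0 too, even in the library given the mimic. Its value in these mRNA libraries thus tells nothing of the microRNA's level. None of 8 hepatocyte markers (ALB, APOA1, APOB, TTR, SERPINA1, HNF4A, AHSG, and FGB) reached the filter. TTR reached 23 reads in the miR-1 library, and FGB, which encodes a fibrinogen chain, was at 0 throughout.

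The mature miR-122 lies at chr18:58451088-58451109 on the plus strand of GRCh38. It is printed as RefSeq gives it, with the seed in capitals, because the sites of the 10 genes are matches to these letters.
hsa-miR-122-5p: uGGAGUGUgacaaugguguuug

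Sites of 4 forms were searched on the transcript strand. The 8mer ACACTCCA pairs with the whole seed and has an A after it, the 7mer-m8 ACACTCC pairs with the whole seed, the 7mer-A1 CACTCCA pairs with bases 2 to 7 and has the A, and the 6mer CACTCC pairs with bases 2 to 7 alone. Longer forms contain the shorter ones, and each site was counted once, as its longest form. In the 3′ UTR of the Ensembl canonical transcript, 6 of the 10 genes had at least one 8mer (CLIC4, SLC7A1, P4HA1, GYS1, ALDOA, and CCNG1), 2 had a 7mer-A1 as their best site (ADAM10 and NDRG3), and 2 had none (BCKDK and TMED3). Among 11254 tested genes with an annotated 3′ UTR, the best site in the longest UTR was an 8mer in 3.69%, a 7mer-m8 in 6.11%, a 7mer-A1 in 16.5%, a 6mer in 14.1%, and none in 59.6%.

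The sites are shown as 22 bases, 5′ to 3′ on the strand of the gene, with coordinates on GRCh38 and the matched letters in capitals. They end with the letter opposite the first base of miR-122, so that the rest of the microRNA faces the lower-case part. The 7 8mers of the 6 genes come first.
CLIC4 3′ UTR, chr1:24841167-24841188, plus strand: tctttaatttggagACACTCCA
SLC7A1 3′ UTR, first 8mer, chr13:29513382-29513403, minus strand: tccatgaaattgtgACACTCCA
SLC7A1 3′ UTR, second 8mer, chr13:29510363-29510384, minus strand: tggtgcaagaagctACACTCCA
P4HA1 3′ UTR, chr10:73008120-73008141, minus strand: tttacaattgactaACACTCCA
GYS1 3′ UTR, chr19:48969146-48969167, minus strand: acccagtccgccaaACACTCCA
ALDOA 3′ UTR, chr16:30070225-30070246, plus strand: ccaggctgcccccaACACTCCA
CCNG1 3′ UTR, chr5:163444488-163444509, plus strand: tcagactagattgaACACTCCA

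The additional 7mer-m8 sites of CLIC4, SLC7A1, and GYS1 show how the letter after the seed match differs from the A of an 8mer.
CLIC4 3′ UTR, 7mer-m8, chr1:24841087-24841108, plus strand: ttatcttaaaatatACACTCCt
SLC7A1 3′ UTR, 7mer-m8, chr13:29513109-29513130, minus strand: gcaccatttcacacACACTCCt
GYS1 3′ UTR, 7mer-m8, chr19:48969268-48969289, minus strand: aagtccgccccaccACACTCCc

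ADAM10 and NDRG3 have only the shorter 7mer-A1, and BCKDK has its one match, a 7mer-m8, in the coding sequence.
ADAM10 3′ UTR, first 7mer-A1, chr15:58597492-58597513, minus strand: acaatgggaaaacttCACTCCA
ADAM10 3′ UTR, second 7mer-A1, chr15:58593227-58593248, minus strand: gcgattgcgccattgCACTCCA
NDRG3 3′ UTR, chr20:36653466-36653487, minus strand: catccttcaaatgacCACTCCA
BCKDK coding sequence, chr16:31111309-31111330, plus strand: ggagagtcacctagACACTCCc

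In the miR-122 library, 9 of the 10 genes were below their control level, and 5 of them (CLIC4, SLC7A1, P4HA1, ADAM10, and GYS1) had a ratio of at most 0.8, against 12.6% of the tested genes. BCKDK alone was higher by the same fold or more, its control level being under 0.8 of that with miR-122, which held for 8.08% of the tested genes. CLIC4 and SLC7A1 had the lowest ratios, 0.527 and 0.699. The median log2 ratio of the 10 genes was −0.32, against −0.02 over all tested genes. Intervals of 95% were calculated from the reads behind each value. They cover counting error only and compare 2 libraries, not 2 conditions. The whole interval lay below 1 for 7 of the 10 genes, against 16.8% of the tested genes, and above 1 for BCKDK alone, against 13.5%. Of the genes nearest the 0.8 line, ADAM10 (0.797) and GYS1 (0.798) lay just inside and NDRG3 (0.804) just outside, so the count of 5 turns on differences far smaller than their intervals. It was 1 with a pseudocount of 1 FPKM added to both values, 2 with a pseudocount of 0.1 FPKM, and 3 when the ratios were centred on the median of all tested genes. The share of all tested genes at most 0.8 was not calculated under these settings.

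Values of 1 gene can be compared between libraries, but not between genes, because the length behind the deposited FPKM follows the gene's span with its introns. Put instead on reads per kilobase of the canonical mRNA per 1000000 reads, the control levels of the 10 genes ran from 5.48 for ADAM10 to 450 for ALDOA. Next to ALDOA came TMED3 at 73.2, CCNG1 at 62.4, and CLIC4 at 52.4. BCKDK, NDRG3, SLC7A1, GYS1, and P4HA1 lay between 27.1 and 13.9. Both the lowest ratio (CLIC4) and the highest (BCKDK) thus belonged to genes in the middle of this order.

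Among the proteins of membranes and transport, CLIC4 (ENSG00000169504, chr1:24745382-24844321) encodes a chloride intracellular channel protein that also acts in the cytoskeleton and nucleus. Its level was 2.25 FPKM in the control library, 1.19 after miR-122, 1.93 after miR-1, and 1.72 after miR-124. The miR-122 library was the lowest, at a ratio to control of 0.527 (interval 0.481 to 0.577) from 691 reads against 1476. It ranked 39 from the lowest of the 12814 tested genes. CLIC4 was also below control with miR-1, at 0.855, and with miR-124, at 0.765, yet the miR-122 library remained below each of these, at 0.616 of the miR-1 level (0.563 to 0.673) and 0.689 of the miR-124 level (0.625 to 0.758). Its 3′ UTR of 3384 bases carries a 7mer-m8 at position 164 and an 8mer at position 244 after the stop codon.

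SLC7A1 (ENSG00000139514, chr13:29509414-29595688) encodes a transporter of arginine, lysine, and ornithine. Its level was 1.71 FPKM in the control library, 1.19 after miR-122, 1.66 after miR-1, and 1.495 after miR-124. The miR-122 library stood apart below the other 3, with a ratio to control of 0.699 (0.630 to 0.774), against 0.972 for miR-1 and 0.876 for miR-124. It was 0.719 of the miR-1 level and 0.798 of the miR-124 level, with both intervals below 1. SLC7A1 has the most 3′ UTR matches of the 10 genes in their canonical transcripts, with 8mers at positions 1091 and 4110 of 5066, a 7mer-m8 at 1364, and a 6mer at 686.

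The other 2 membrane proteins had smaller differences. ADAM10 (ENSG00000137845, chr15:58588809-58749791), a metalloprotease that sheds the outer part of Notch receptors and other surface proteins, was at 0.379 FPKM in the control library, 0.302 after miR-122, 0.293 after miR-1, and 0.287 after miR-124. All 3 mimic libraries were below control by a like amount, at ratios of 0.797 with miR-122 (0.683 to 0.930), 0.772 with miR-1, and 0.756 with miR-124. The interval between the miR-122 and miR-1 libraries spanned 1, as did that between miR-122 and miR-124. Its best site is a 7mer-A1, at positions 49 and 4314 of an 8738-base UTR, and the same UTR holds a 7mer-A1 match to miR-1.

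TMED3 (ENSG00000166557, chr15:79311112-79427432) belongs to the p24 family of cargo receptors between the endoplasmic reticulum and the Golgi. It was at 0.892 FPKM in the control library, 0.798 after miR-122, 0.885 after miR-1, and 0.821 after miR-124. The miR-122 level was the lowest of the 4, but its interval to control reached 1 (ratio 0.895, 0.798 to 1.00). No match was found in the 626-base UTR of its canonical transcript. The longest annotated UTR, 15928 bases in another transcript, holds 6 matches with a 7mer-m8 as the best, and which of these transcripts the cells make was not tested.

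Among the metabolic enzymes, ALDOA (ENSG00000149925, chr16:30064164-30070457), the aldolase that splits fructose bisphosphate in glycolysis, was at 42.5 FPKM in the control library, 38.5 after miR-122, 52.9 after miR-1, and 54.8 after miR-124. The other 2 mimic libraries were above control, by 24.6% with miR-1 and 29.1% with miR-124, while the miR-122 library was below it, at 0.907 (0.869 to 0.946). Against the other mimics the difference was larger, at 0.728 of the miR-1 level (0.700 to 0.756) and 0.702 of the miR-124 level (0.675 to 0.731). ALDOA has an 8mer at position 27 of a 202-base UTR and a 7mer-m8 in the coding sequence. ALDOA has processed pseudogene copies, a long noncoding RNA on the opposite strand had 7.31% as many reads, and the length behind its values, 17367 bases, exceeds its span of 6294, so that reads of other loci may be part of its value.

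GYS1 (ENSG00000104812, chr19:48968130-48993310) is the glycogen synthase of muscle and most other tissues outside the liver. Like ALDOA, it was lowest in the miR-122 library and above control with the other 2 mimics, at 2.70 FPKM in the control library, 2.15 after miR-122, 3.495 after miR-1, and 3.30 after miR-124. The ratio to control was 0.798 with miR-122 (0.689 to 0.923). The ratios for miR-1 (1.30) and miR-124 (1.22) had intervals above 1. Its miR-122 level was 0.616 of that with miR-1 (0.539 to 0.701) and 0.652 of that with miR-124 (0.566 to 0.751). The 3′ UTR of 1158 bases has a 7mer-m8 at position 13, an 8mer at 135, and a 7mer-A1 at 173, and the coding sequence has a further 8mer.

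P4HA1 (ENSG00000122884, chr10:73007217-73096974), a catalytic subunit of the collagen prolyl hydroxylase, was at 0.426 FPKM in the control library, 0.326 after miR-122, 0.349 after miR-1, and 0.448 after miR-124. Its ratio with miR-122 was 0.765 (0.627 to 0.932) and that with miR-1 was 0.820 (0.691 to 0.974). These 2 libraries could not be told apart (0.933, 0.769 to 1.13), whereas the miR-122 level was 0.727 of that with miR-124 (0.596 to 0.884). P4HA1 had the fewest reads of the 10 genes, 172 in the miR-122 library, and a long noncoding RNA on the opposite strand had 10.8% as many over the 4 libraries. Its one 8mer lies at position 95 of 1005.

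BCKDK (ENSG00000103507, chr16:31106107-31112791), the kinase that switches off the branched-chain ketoacid dehydrogenase, was the exception among the 10. Its level was 8.24 FPKM in the control library, 12.2 after miR-122, 12.1 after miR-1, and 11.04 after miR-124. The control library was the lowest and all 3 mimic libraries were above it, with ratios of 1.48 for miR-122 (1.29 to 1.70), 1.47 for miR-1, and 1.34 for miR-124. The miR-122 library did not differ from the other mimics beyond counting error, at 1.01 (0.897 to 1.13) and 1.11 (0.972 to 1.26). Its 526-base UTR has no match to the miR-122 seed.

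Of the 2 genes of growth and signalling, CCNG1 (ENSG00000113328, chr5:163437569-163446151), a cyclin induced by p53, was at 17.8 FPKM in the control library, 16.6 after miR-122, 15.2 after miR-1, and 15.7 after miR-124. The miR-122 ratio of 0.934 (0.851 to 1.02) was the nearest to 1 of the 10, and the other 2 mimics were lower, at 0.854 and 0.884, with intervals below 1. This was so although CCNG1 has an 8mer, at position 832 of 1346. NDRG3 (ENSG00000101079, chr20:36651766-36746090), of the N-myc downstream-regulated family, was at 0.723 FPKM in the control library, 0.582 after miR-122, 0.566 after miR-1, and 0.641 after miR-124. Its ratio was 0.804 with miR-122 (0.695 to 0.930), next to 0.783 with miR-1 and 0.886 with miR-124. The intervals between the miR-122 library and both others spanned 1. Its UTR has a 7mer-A1 match to miR-122 and an 8mer match to miR-1.

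The other 2 mimics served as a measure of specificity, although each can lower targets of its own. Matches to the miR-124 seed were not searched. In the canonical 3′ UTRs, miR-1 had an 8mer match in NDRG3 and a 7mer-A1 in ADAM10. CLIC4, GYS1, and BCKDK had a 6mer match to miR-1 as the best, and the other members had none. Whether such sites moved the ratios was not tested. With miR-1, 2 of the 10 genes (ADAM10 and NDRG3) had a ratio of at most 0.8, against 18.6% of the tested genes, and 5 had an interval below 1, against 24.9%. With miR-124, 2 genes (ADAM10 and CLIC4) were at most 0.8, against 16.6%, and 4 had an interval below 1, against 22.2%. The medians of the 10 genes were −0.13 with miR-1 and −0.15 with miR-124 on the log2 scale, against −0.05 over all tested genes in each. These 3 comparisons share the control library, whose value was the highest of the 4 for 6 of the 10 genes and for 33.8% of the tested genes.

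Against the mean of the miR-1 and miR-124 libraries, a reference without the control, 4 of the 10 genes were at most 0.8, against 4.98% of the tested genes. They were GYS1 at 0.633, CLIC4 at 0.650, ALDOA at 0.715, and SLC7A1 at 0.757. P4HA1 was at 0.817, TMED3 at 0.936, and NDRG3 at 0.963. ADAM10 (1.04), BCKDK (1.05), and CCNG1 (1.07) were above 1, so that the lower level of ADAM10 against control was not seen against this reference. The same 4 genes that were at most 0.8 were lower in the miR-122 library than in each of the other 3, with all 3 intervals below 1, which held for 1.88% of the tested genes. This last count was added after the values were seen. The miR-122 library was the lowest of the 4 for 6 of the 10 genes and for 19.0% of the tested genes.

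All 4 genes have an 8mer in the 3′ UTR, as do P4HA1 and CCNG1. Known targets are often recognised by such sites, so that the sites are not independent of how the 10 genes came to be known. The 6 genes with an 8mer had a median ratio of 0.781 to control and 0.735 to the other mimics. ADAM10 and NDRG3, with a 7mer-A1, had 0.797 and 0.804 to control and 1.04 and 0.963 to the other mimics. Over the 11254 tested genes with a 3′ UTR, the median ratio to control was 0.903 with an 8mer (28.9% of them at most 0.8). It was 0.935 with a 7mer-m8, 0.962 with a 7mer-A1, 0.983 with a 6mer, and 0.998 with no site (10.4% at most 0.8). Against the other mimics the class medians were 0.971 with an 8mer, 1.02 with a 7mer-A1, and 1.02 with no site. CLIC4, SLC7A1, P4HA1, and GYS1 lay below the 8mer class median to control, and ALDOA (0.907) and CCNG1 (0.934) lay above it.

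**Figure D1:**
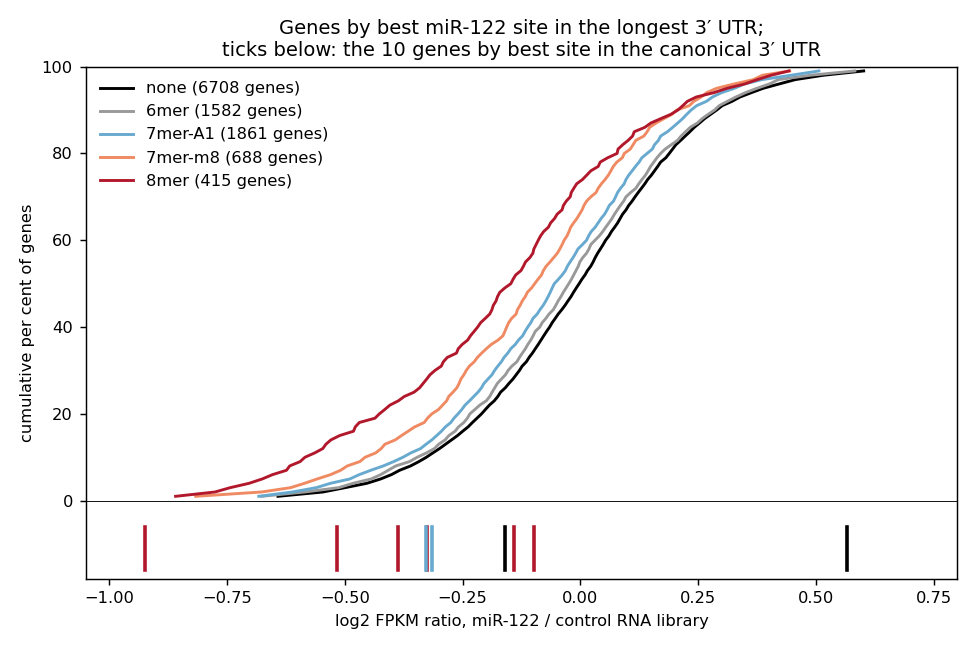
Cumulative per cent of tested genes (y axis) by log2 FPKM ratio of the miR-122 to the control RNA library (x axis), with 1 line for each best miR-122 site in the longest 3′ UTR. Ticks below are the 10 genes, coloured by the best site in the canonical UTR. The 8mer line lies farthest left, with a median ratio of 0.903, and the tick at the far left is CLIC4.

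The surroundings of the 8mers differed among the 6 genes. The 30 bases on each side of the 8mer were 55.0% A or U in CLIC4, 65.0% and 58.3% in SLC7A1, 65.0% in P4HA1, 31.7% in GYS1, 35.0% in ALDOA, and 68.3% in CCNG1, against a median of 50% over 443 8mers of tested genes. CCNG1, with the most A and U, had the ratio nearest to 1. The predicted duplex energy with miR-122 was −13.7 kcal/mol for CLIC4, −15.1 for P4HA1, −17.5 for GYS1, −17.8 for ALDOA, and −19.2 for CCNG1. The 8mers of SLC7A1, whose ratio to control was 0.699, were at −19.6 and −13.6. Without SLC7A1 the stronger duplex went with the ratio to control nearer to 1, but its site at −19.6 broke this order. Against the other mimics the order was not seen, with GYS1 at 0.633, CLIC4 at 0.650, ALDOA at 0.715, and P4HA1 at 0.817. Stronger than any of these 3′ UTR 8mers were a 7mer-m8 of SLC7A1 (−23.8) and the coding 8mer of GYS1 (−20). These are descriptions of 6 genes and of letters in the annotated transcripts. Binding was not measured.

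Base composition and 3′ UTR length moved with the ratios in all 3 mimic libraries. The log2 ratio to control correlated with 3′ UTR GC content across 11254 genes. Its r was 0.337 for miR-122, 0.238 for miR-1, and 0.606 for miR-124. With the log2 of 3′ UTR length, r was −0.293 for miR-122, −0.344 for miR-1, and −0.367 for miR-124. These are descriptions across genes that are not independent replicates and that share libraries. The 3 genes above control with both other mimics were those with the most GC in their UTR, BCKDK (63.8%), ALDOA (63.6%), and GYS1 (56.5%), while the UTRs of CCNG1, CLIC4, P4HA1, and ADAM10 held 32.2% to 35.8%. With the trend on UTR GC, UTR length, gene span, and reads subtracted, the miR-122 ratios were 0.583 for CLIC4, 0.722 for SLC7A1, 0.747 for GYS1, 0.754 for ALDOA, 0.818 for P4HA1, 0.832 for NDRG3, 0.912 for ADAM10, 0.956 for CCNG1, 0.984 for TMED3, and 1.28 for BCKDK. On this scale the lowest 4 were the 4 genes that were also low against the other mimics. By best miR-122 site in the longest UTR, class medians on this scale were 0.926 with an 8mer and 0.957 with a 7mer-m8. They were 0.993 with a 7mer-A1, 0.982 with a 6mer, and 0.990 with no site, so these classes no longer ran in order of site form. With the same trend subtracted from the ratio to the other mimics, 5 genes were at most 0.8, P4HA1 joining at 0.796. The share of all tested genes at most 0.8 was not calculated on this scale, so this count has no background beside it.

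Relatives and pathway partners of the 10 genes were read in the same way, 70 genes in 10 lists, of which 57 passed the filter. With miR-122, 5 of the 57 were at most 0.8, next to 12.6% of all tested genes, and 7 were higher by that fold or more, next to 8.08%. Their median ratio was 1.04, against 0.801 over the 10 genes and 0.985 over all tested genes.

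Relatives of SLC7A1, CLIC4, ALDOA, and GYS1, the 4 genes at most 0.8 against the other mimics, had ratios to control on both sides of 1. Of 5 tested amino acid transport genes, 2 were at most 0.8. They were SLC7A5, the large neutral amino acid transporter, at 0.741 (0.665 to 0.825), and SLC7A2, another cationic transporter, at 0.752 (0.671 to 0.841). SLC7A5 has an 8mer and was at 0.611 of the other mimics, whereas SLC7A2 has no 3′ UTR site and was at 0.887, with 0.712 of control in the miR-124 library. CLIC1, the one tested relative of CLIC4, was at 1.03 although it has an 8mer. ALDOC, the one tested aldolase besides ALDOA, was at 1.26. None of the 9 tested partners of GYS1 in glycogen synthesis and breakdown differed by that fold, and their median was 1.09.

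The partners of P4HA1 in collagen hydroxylation had higher ratios. None of 11 was at most 0.8, 3 were higher by that fold or more, and the median was 1.19. The highest were the prolyl hydroxylases P3H3 (1.41), P4HA3 (1.32, with an interval that reached down to 0.931), and P3H1 (1.32). P4HA1 itself was at 0.765, and none of these 3 has a miR-122 site in the 3′ UTR.

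For the remaining members the lists were mixed. Of 10 tested ADAM proteases and tetraspanins that escort ADAM10, ADAM19 was at 0.779, TSPAN10 at 1.59, and ADAM15 at 1.51, with a median of 0.956. With miR-1 and miR-124, ADAM15 was about as high (1.47 and 1.54) and ADAM19 about as low (0.804 and 0.789). TSPAN10 was at 1.11 with miR-1 and 1.76 with miR-124, and had only 60 reads in the control library and 85 with miR-122. NDRG1 was at 1.28 among 3 relatives of NDRG3. Of 6 genes of branched-chain amino acid breakdown, DBT, the core subunit of the dehydrogenase that BCKDK acts on, was at 0.703, and at 0.751 and 0.770 with the other mimics. BCAT2, a branched-chain aminotransferase named after its values were seen, was at 0.816 of control and 0.675 of the other mimics, with a 7mer-m8 in its canonical 3′ UTR and no site in the longest one. None of the 3 partners of CCNG1 differed by that fold, and their median was 0.996. Among 8 p24 relatives of TMED3 the median was 1.01, but TMED8 was at 0.549 (0.444 to 0.675), about as low as CLIC4. TMED8 carries an 8mer and was at 0.728 of the other mimics.

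**Figure D2:**
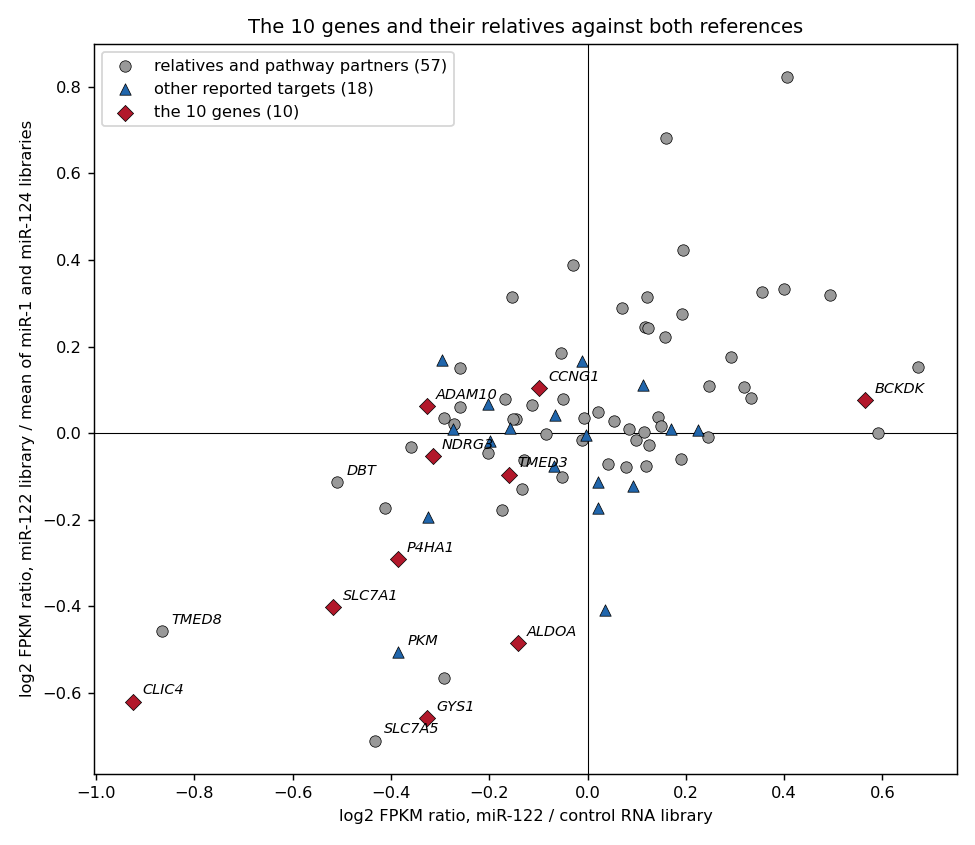
Log2 FPKM ratio of the miR-122 library to the control RNA library (x axis) against that to the mean of the miR-1 and miR-124 libraries (y axis) for the 10 genes, 57 relatives and pathway partners, and 18 other reported targets that are in no other list. Each point is a gene. CLIC4, SLC7A1, GYS1, SLC7A5, TMED8, PKM, and the unlabelled BCAT2 lie low on both axes. ALDOA lies low on the y axis but nearer 0 on the x axis (−0.141). ADAM10, NDRG3, CCNG1, TMED3, and BCKDK lie near 0 on the y axis.

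Of 22 other genes reported as miR-122 targets, 19 were tested, and 2 of them were at most 0.8, next to 12.6% of all tested genes. Their median ratio was 0.955, against 0.985 over all tested genes. All 19 have a match in their longest 3′ UTR, 3 of them an 8mer. The lowest were PKM, a pyruvate kinase, at 0.766 (0.739 to 0.793), CUX1 at 0.798, and CREB1 at 0.814. PKM and CUX1 are 2 of the 3 with an 8mer, the other being GALNT10 at 0.954. In the canonical UTR ADAM17 has an 8mer too, and it was at 0.899 of control and 1.24 of the other mimics. PKM was above control with both other mimics, as ALDOA was, and at 0.704 of them. CREB1 was lower with the other mimics, at 0.706 and 0.741. The highest were BCL2L2 (1.17), PPARD (1.13), and SMARCD1 (1.08).

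Of 1746 genes with a mean of at least 10 FPKM, the 3 most like the 10 genes were sought by the distance of their 3 log2 ratios from the 10 genes' medians. Because FPKM here follow the gene's span, this limit leaves out many genes with long spans. Of the 10 genes, only ALDOA, CCNG1, and BCKDK have means this high. They were ENSG00000272844 (distance 0.06), EZR-AS1 (0.09), and the ribosomal protein pseudogene RPS7P11 (0.12). Against control, ENSG00000272844 was at 0.807 with miR-122, next to 0.945 with miR-1 and 0.913 with miR-124.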

How the data were processed

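RNA was taken from 293T cells with Trizol, and libraries were made with the VAHTS mRNA-seq v2 kit and sequenced from 1 end. The submitters' processing notes name CASAVA 1.8, HISAT2 2.0.0, and GRCh38. The counting program and annotation are not given in the sources used here. The authors deposited FPKM values per Ensembl gene, 1 file per library. Nothing says that strand was used in counting, and overlapping genes may share reads.

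Reads were recovered as FPKM × length × divisor, whole (within 0.003) for 99.8% of 32010 genes with GENCODE release 44, and 59.4% at the gene span itself. Ratios used no pseudocount. Intervals are exact Clopper-Pearson, 95%, from these reads. In simulated libraries of 32010 genes all 4 divisors came back and 95.8% of intervals held the true ratio. Site backgrounds used each gene's longest 3′ UTR. Duplexes were predicted over 30 bases with ViennaRNA 2.7.2, under Python 3.11.15, numpy 2.4.6, pandas 2.3.3, scipy 1.17.1, and samtools 1.23.1.

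The 10 genes and all lists were chosen with earlier results of these data known. Named were all 10 genes, in each related list the tested genes at most 0.8 or at least its inverse (up to 3 per direction), the 3 lowest and 3 highest other reported targets, and the 3 genes most like the 10 in pattern. Alternatives were pseudocounts of 1 and 0.1 FPKM, the other mimics as reference, centring, the adjustment for UTR and gene features, other filters, the gene span as length, and the canonical UTR.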

Additional observations from a re-analysis of the deposited data

How the results depend on the processing

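No paired analysis was possible because the 4 conditions had 1 library each, and for the same reason no replicate could be left out. The median log2 ratio of the 10 genes with miR-122 was −0.32, and it stayed below 0 under all 5 alternatives, at −0.11 with a pseudocount of 1 FPKM. The number of genes at most 0.8 was 5, and it was 1 with a pseudocount of 1, 2 with a pseudocount of 0.1, 3 when centred on the median of all tested genes, 4 against the other mimics, and 4 when adjusted. A pseudocount draws low values toward a ratio of 1 by its construction, and 6 of the 10 genes have a mean of at least 1 FPKM. Because these FPKM follow the gene's span, a low value need not mean few reads. ADAM10, for example, had 0.379 FPKM from 405 reads in the control library. With miR-1 the number was 2, and it was 0 with either pseudocount, 1 when centred, and 0 when adjusted. With miR-124 the number was 2, and it was 0 with a pseudocount of 1, 1 with a pseudocount of 0.1, and 0 when adjusted. For miR-122 against the other mimics the number was 4, and it was 3 with a pseudocount of 1 and 5 when adjusted. The cause of the changes by centring and adjustment was not tested. The ratio of ADAM10 turned to 1.04 against the other mimics. The share of genes at most 0.8 was 12.6%, and 21.4% with no read filter, where genes of few reads enter. This share was not calculated under the pseudocounts, the centring, or the adjustment, so those counts have no background beside them. With the gene span as length, 7 intervals still lay below 1, and 8 genes instead of 9 had a miR-122 site in the canonical UTR. Depth limits P4HA1 most, with 172 reads in the miR-122 library.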
